A study of Mus musculus with 2 samples.

Results

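The cells described here are the kept cells of a mouse small intestinal organoid data set whose transcripts of goblet cell or Paneth cell products passed a fixed level. Organoids are epithelial structures grown in culture from intestinal crypts. A cell entered through the goblet arm when Muc2, Fcgbp, Clca1 and Zg16 together reached at least 3 unique molecular identifiers (UMIs) per 10000 of its barcode (CP10K), and through the Paneth arm when Lyz1, Defa24 and Mmp7 together reached at least 20 CP10K. By this rule 191 of 4066 kept cells were members (4.70%, 95% exact interval 4.07 to 5.39). The goblet arm alone took 124 cells, the Paneth arm alone took 26, and 41 cells passed both. The members were chosen by the levels of these 7 genes, which are therefore given as a description and support nothing.

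According to the labels, the study had a control (1 library) and a melatonin-treated group (1 library), each taken at culture day 3 from 3 pooled lines of organoids. Mouse strain, genotype and age are not stated there, nor is a melatonin dose with a unit; the melatonin library's name holds the term M500, which is not explained. Both libraries carried the same deposited files (3 of 3 identical) and so hold 1 data set, in which barcodes end in the suffix 1 or 2. No label ties a suffix to a treatment, no control and melatonin values could be separated, and no test or p-value is given. All intervals are 95% exact intervals and cover counting error only. The data set held 194068573 UMIs over 21806 barcodes, and kept cells had a median of 29222 UMIs. Among the barcode sequences, 29 occurred with both suffixes, 7 kept cells and 1 member carried such a sequence, and 0 sequences were kept with both.

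Goblet cells secrete the gel-forming mucin of the intestinal mucus and the proteins packed with it, and Paneth cells at the crypt base secrete antimicrobial lysozyme and defensins and signals to neighbouring stem cells. Both belong to the secretory lineage of the epithelium, which the transcription factor Atoh1 opens when Notch signalling is low, and enteroendocrine cells, which make hormones, are a further branch of that lineage. Spdef acts downstream of Atoh1 in goblet and Paneth cell maturation, while Neurog3 is the factor of enteroendocrine precursors.

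Fcgbp, a mucus protein related to mucins, carried the goblet arm. Of its 165 cells, 160 had an Fcgbp UMI and 126 had Fcgbp as the only goblet gene detected. Muc2, the gel-forming mucin, was detected in 35 of them, Zg16, a lectin of mucus granules, in 9, and Clca1, a mucus protease, in 3. The 3 cells with most Zg16 held 97.0% of all Zg16 UMIs of the kept cells, and the 3 with most Muc2 held 56.7%. In the Paneth arm, lysozyme Lyz1 was detected in 65 of 67 cells, the defensin Defa24 in 53 and the protease Mmp7, which cuts defensin precursors into their active form, in 21. Members held 19.7% of the Mmp7 UMIs of kept cells, 96.6% of those of Defa24 and 67.2% of those of Lyz1. Mouse defensin genes are near copies of each other, so counts assigned to Defa24, Defa17 or Defa30 are uncertain between them.

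Member levels ran on without a gap from those of the other cells. The goblet arm had a median of 8.57 CP10K and reached 211, with 38 cells within 1.5 times above its threshold and 43 kept cells within 1.5 times below it. The lowest member stood at 3.07 CP10K and the highest cell outside at 2.97. The Paneth arm had a median of 94.1 CP10K and reached 869, with 9 cells just above and 25 just below, the nearest at 21.3 and 19.96. In cells of at most 3333 UMIs a single UMI passed the goblet arm: 442 kept cells were that shallow, 39 of them passed, and 30 of these did so on 1 UMI.

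**Figure D1:**
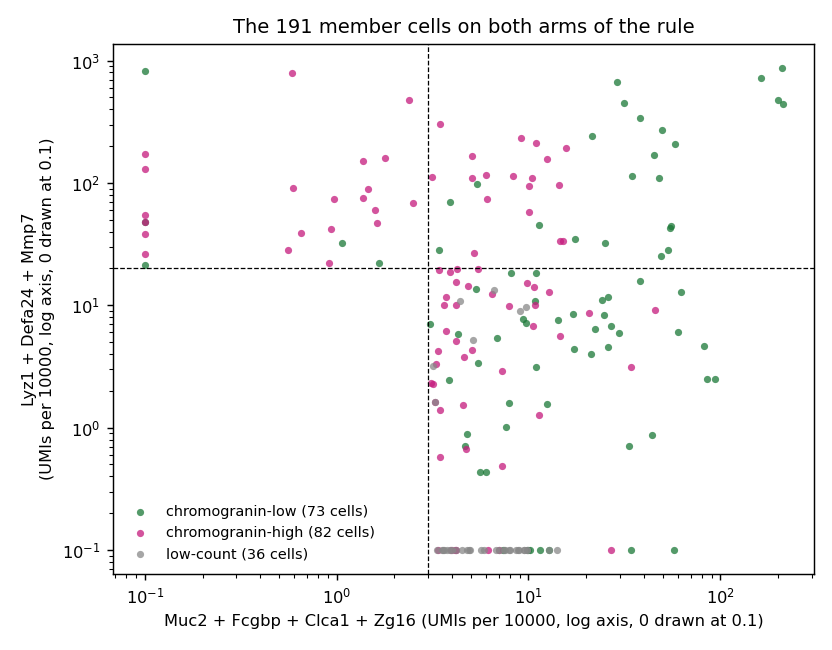
Each point is 1 of the 191 member cells, with the summed goblet arm genes on the horizontal axis and the summed Paneth arm genes on the vertical axis, both in UMIs per 10000 on log axes, and dashed lines at 3 and 20. Green points (73 cells) lie under the chromogranin threshold, magenta points (82) at or above it, and grey points (36) passed on fewer than 3 UMIs; magenta fills most of the upper left and the 4 cells at the upper right corner are green.

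The promoters of the rule genes are shown because Atoh1, whose transcripts are counted in the members further on, binds E-boxes. The RefSeq table of promoters (GRCm38.p6, 250 bases before to 50 after the start) held 4 of the 7 rule genes; it had no entry for Clca1, Zg16 and Defa24. The E-box CAGCTG, which reads the same on both strands, was searched in windows of 300 bases, and 16.3% of the 32851 promoters in the table held it. It occurred in 3 of the 4 genes and not in either Mmp7 window. In the sequences below, written 5′ to 3′ on the strand of the gene, capitals mark it. Muc2 is on the plus strand at chr7:141690090-141690389 with the match at -112 from the start, Fcgbp on the plus strand at chr7:28070986-28071285 with the match at -208, and Lyz1 on the minus strand at chr10:117292819-117293118 with the match 6 bases past the start. A match is only a description of the letters.
Muc2: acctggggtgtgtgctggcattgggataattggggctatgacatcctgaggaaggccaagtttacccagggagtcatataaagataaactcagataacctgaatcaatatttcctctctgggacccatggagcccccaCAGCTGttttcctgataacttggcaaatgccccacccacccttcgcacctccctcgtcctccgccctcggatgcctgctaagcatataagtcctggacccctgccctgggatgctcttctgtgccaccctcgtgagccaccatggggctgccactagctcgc
Fcgbp: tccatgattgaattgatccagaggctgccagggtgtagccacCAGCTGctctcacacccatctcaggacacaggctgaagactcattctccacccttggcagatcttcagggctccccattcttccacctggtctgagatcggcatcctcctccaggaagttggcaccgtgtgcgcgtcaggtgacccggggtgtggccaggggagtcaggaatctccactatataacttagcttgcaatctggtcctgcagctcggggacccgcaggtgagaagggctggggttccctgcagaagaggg
Lyz1: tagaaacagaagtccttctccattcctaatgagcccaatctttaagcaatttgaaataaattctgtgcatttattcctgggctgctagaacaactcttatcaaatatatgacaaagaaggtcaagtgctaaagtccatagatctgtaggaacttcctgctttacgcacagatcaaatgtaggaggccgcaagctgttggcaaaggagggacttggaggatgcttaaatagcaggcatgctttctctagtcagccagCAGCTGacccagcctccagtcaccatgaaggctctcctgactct

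The name goblet and Paneth cells went against the data for many members, because they also carried enteroendocrine transcripts. Chromogranins, the acidic proteins of hormone granules, were used as the check: 88 of 191 members (46.1%, 38.9 to 53.4) had a summed Chga and Chgb level of at least 10 CP10K, against 572 of 3875 cells outside both arms (14.8%, 13.7 to 15.9). With no mitochondrial limit it was 127 of 594 members (21.4%, 18.1 to 24.9). The share was highest in cells of the Paneth arm only, at 21 of 26 (80.8%, 60.6 to 93.4), followed by 18 of 41 both-arm cells (43.9%) and 49 of 124 goblet-only cells (39.5%). The intervals of the last pair overlap. The median Chgb level over cells was 449 CP10K in Paneth-only cells, 3.67 in goblet-only cells, 1.07 in both-arm cells and 0.440 in cells of neither arm. All 26 Paneth-only cells had 0 UMIs of Spdef and Atoh1 (0%, 0 to 13.2). A UMI of either was in 55 of 3875 cells of neither arm (1.42%) and 15 of those 572 at the chromogranin threshold (2.62%), both within that interval. It was in 23 of 124 goblet-only cells (18.5%) and 16 of 41 both-arm cells (39.0%). Because of the chromogranin shares the arms are called by their rule below, and the members were also split at the chromogranin threshold, a split chosen after these values were seen. It gives 73 chromogranin-low members, 82 chromogranin-high members and 36 low-count members, which passed on fewer than 3 UMIs in every arm.

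The same pattern was read the other way, by asking which kept cells reached an arm. Of 660 kept cells at the chromogranin threshold, 88 were members (13.3%, 10.8 to 16.2). The other cells were classed in turn. Of 427 further cells at an enterocyte threshold (Fabp1, Apoa1 and Alpi of 20 CP10K or more) 8 were members (1.87%, 0.812 to 3.66), and of 1268 cells in neither of these classes with Lgr5, the crypt stem cell receptor, at 1 CP10K or more, 19 were (1.498%, 0.904 to 2.33). The remaining 1711 cells held 76 members (4.44%, 3.52 to 5.53). The interval of the chromogranin cells lay above all of the others. Over all chromogranin cells, members or not, Defa24 stood at 736 UMIs per 1000000 summed UMIs of the class (CPM; 719 to 754) against 4.72 (3.63 to 6.03) in the enterocyte cells and 6.47 (5.72 to 7.30) in the Lgr5 cells, and at 345 CPM (340 to 350) in the remaining cells. Without the 3 highest cells of each class it was 477 CPM (463 to 491) in chromogranin cells and 144 CPM in the remaining cells. Fcgbp was at 119 CPM in chromogranin cells, 88.7 in the remaining cells, 31.8 in Lgr5 cells and 19.2 in enterocyte cells. Lyz1 was 232 CPM in chromogranin cells, 71.3 in enterocyte cells, 51.2 in the remaining cells and 22.3 in Lgr5 cells, and Mmp7 was 49.9 CPM against 1.995 in the remaining cells and 0 UMIs in the enterocyte cells, where 3 counts would be 0.221 CPM. Muc2 showed another order, at 1.66 CPM in chromogranin cells and 12.5 in the remaining cells, and at 1.15 (0.574 to 2.06) and 4.80 (4.20 to 5.46) without the 3 highest cells of each class. Zg16 was 0.728 and 25.6 CPM, but without those cells 0.21 (0.0254 to 0.757) and 0.454 (0.284 to 0.687), with overlapping intervals.

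**Figure D2:**
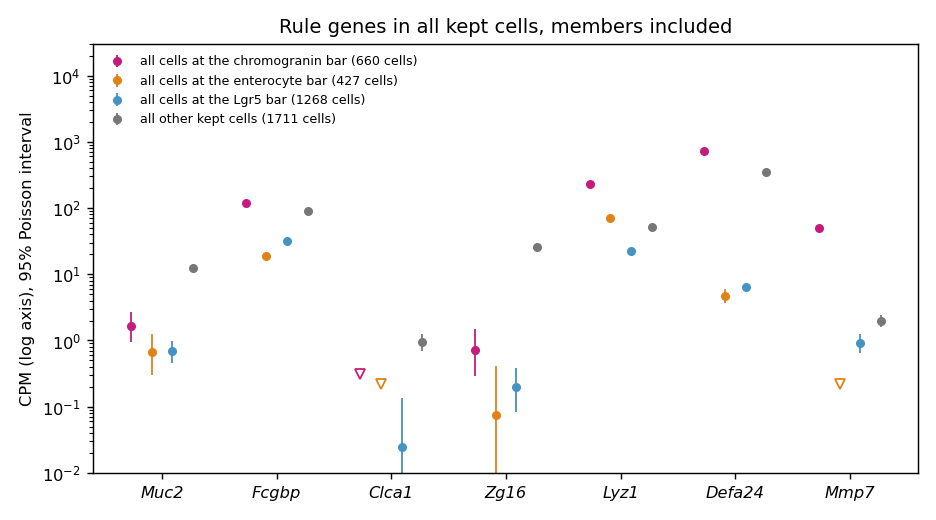
CPM of the 7 rule genes on a log axis in all kept cells, divided into 4 classes by chromogranin, enterocyte and Lgr5 thresholds, with 95% Poisson intervals and open triangles where 0 UMIs were found (drawn at the level of 3 counts). Fcgbp, Lyz1, Defa24 and Mmp7 were highest in the chromogranin cells, whereas Muc2, Clca1 and Zg16 were highest in the cells that met none of the thresholds. There, 3 cells held all 46 Clca1 UMIs, and without the 3 highest cells the Zg16 intervals of this class and of the chromogranin cells overlapped.

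As a class, goblet-only cells carried, beside the rule genes, the small secreted partners of mucus and genes of enteroendocrine precursors. The class held 45 chromogranin-low, 43 chromogranin-high and 36 low-count members. Whether single cells carried both sets of genes was not tested. A gene is called higher or lower here when CPM plus 1 differed at least 2-fold and the intervals did not overlap. The rule divided these same cells, so the comparison with cells of neither arm is a description; with the rule genes left out, 11% of 15405 tested genes were higher (1691) and 1.84% lower. Trefoil factor Tff3, a mucus-stabilising peptide, was at 7206 CPM (7091 to 7323) against 135, and Spink4, a protease inhibitor of goblet cell granules, at 3764 CPM against 48.1. Agr2, the disulfide isomerase needed for mucin folding, was at 1241 CPM against 65.1. Its level was higher but not its share of cells with a UMI, at 48 of 124 (38.7%) against 1669 of 3875 (43.1%). Clps, pancreatic-type colipase known from Paneth cells, was 29.8-fold higher. These and the following genes are the largest folds among genes at 50 CPM or more, with UMIs in at least 25% of the cells and at most 50% of UMIs in 3 cells. Tpsg1, Guca2a, Spdef and Atoh1 had folds of 33.6, 23.2, 20.6 and 18.8 but were found in 13 to 17 of the 124 cells. The next genes within those limits were Rab15 (15.1-fold), a trafficking GTPase, Kit (15.1-fold), a receptor known on goblet and Paneth cells, and Cbfa2t3 (13.6-fold), a transcriptional corepressor. Neurog3 was 13.4-fold higher and found in 36 of 124 cells, the Paneth cell ligand Wnt3 was 9.99-fold higher, and Insm1, a factor of endocrine differentiation, 9.77-fold. Without all cells at the chromogranin threshold, 873 genes were higher in place of 1691, and with a pseudocount of 10 CPM 379 were.

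The genes that were higher in Paneth-only cells beyond the rule genes included most of the enteroendocrine list. Against cells of neither arm, 15.9% of 15349 tested genes were higher (2445) and 5.45% lower. The largest folds under the naming rule were those of Neurod2 (16.9-fold) and Myt1 (13.6-fold), both neuronal transcription factors, Olfm1 (15.4-fold), a secreted neuronal glycoprotein, and Ptprn2 (14.6-fold), a protein of hormone granule membranes. Gfra3, a co-receptor for neurotrophic ligands, followed at 14.3-fold, Vim, an intermediate filament gene of mesenchymal and some endocrine cells, at 13.8-fold, and Gm609, Ppp1r14c, Rprml and the prion gene Prnp at 13.4-fold to 13.6-fold. All 10 were in 12 to 22 of the 26 cells. Of the 21 enteroendocrine genes 17 were higher and 2 lower, with a median log2 ratio of 3.35 against 0.01 over all genes. Of 20 tested Paneth products beyond the rule genes 10 were higher and 0 lower, with a median of 1.27, and the 3 Paneth arm genes, which chose these cells, had a median of 6.59. Without the cells at the chromogranin threshold 5 Paneth-only cells were left and 685 genes were higher, and with a pseudocount of 10 CPM 1418 were.

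Those 5 Paneth-only cells under the chromogranin threshold were unlike each other. The highest had 1559 UMIs, of which 124 were Defa24 (795 CP10K), with Tff3 at 237 CP10K and Spink4 at 269 CP10K and no UMI of the goblet arm genes. The next had 94 Lyz1 UMIs and 0 of Defa24, and the one after it had 30 Lyz1 UMIs and 0 of Defa24. Another cell held 4048 UMIs of the hormone gene Gip (3346 CP10K) with 25 of Defa24. The last held 1288 UMIs of the enterocyte fatty acid carrier Fabp1 (286 CP10K) with 96 of Lyz1. A further Paneth-only cell, at the chromogranin threshold, held 4850 of the 4943 somatostatin (Sst) UMIs of all kept cells.

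Of the 3 arm classes, cells that passed both arms had the highest levels of Spink4, Tff3, Agr2 and Clps, but not of Reg4, which reached 100 CP10K in 0 of 41 of them and 3 of 26 Paneth-only cells. Against cells of neither arm, 8.71% of 15365 tested genes were higher (1338) and 4.48% lower. Spink4 stood at 25020 CPM (24689 to 25355) and Tff3 at 20780 CPM (20478 to 21085), each in 40 of 41 cells. Tpsg1, a tryptase gene, was 99.0-fold and Spdef 63.0-fold higher, each in 16 of 41 cells, and Agr2 was 60.8-fold higher. Clps (38.6-fold), the calcium pump gene Atp2a3 (24.9-fold), Rab15 (21.3-fold), the ribonuclease gene Rnase1 (21.0-fold) and Cbfa2t3 (19.8-fold) completed the 10 named genes, which were chosen for this class after values were seen. Median levels over the 41 cells were 89.2 CP10K for Spink4, 81.2 for Tff3, 95.6 for Defa24, 22.6 for Lyz1 and 14.7 for Fcgbp, while the median for Muc2 was 0.

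Few cells held the top of both programmes. In 4 both-arm cells, all of suffix 2 and under the chromogranin threshold, the goblet genes reached at least 100 CP10K. The first had 180 Muc2, 538 Fcgbp, 190 Zg16, 3485 Defa24 and 294 Lyz1 UMIs among 43494. The second had 36 Muc2, 173 Fcgbp, 696 Zg16, 4142 Defa24 and 25 Lyz1 UMIs among 57813, and the third 92 Muc2, 204 Fcgbp, 339 Zg16, 1517 Defa24 and 4 Lyz1 UMIs among 31954. The last, with 18669 UMIs, had 103 Muc2, 291 Fcgbp and 825 Defa24 UMIs but 0 of Zg16. All 4 had Spdef UMIs, and 3 of them had Atoh1 UMIs. In 13 of 41 both-arm cells a Muc2 UMI came with Defa24 of at least 20 CP10K. No doublet caller was used, so cells with both products may hold 2 cells under 1 barcode, which was not tested. Of the 204 deepest kept cells 6 were members and 2 passed both arms, beside 4.70% and 1.01% of all kept cells. Members had a median of 15092 UMIs, against 30055 in cells of neither arm.

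Split at the chromogranin threshold, Spdef and Atoh1 were found mainly in the chromogranin-low members. Spdef was at 61.3 CPM (50.9 to 73.4) in chromogranin-low members, with a UMI in 29 of 73 cells, against 0.777 CPM and 1 of 82 cells in chromogranin-high members. Atoh1 was at 35.8 CPM (27.9 to 45.2) in 27 of 73 cells against 0.777 CPM in 1 of 82. A UMI of either was present in 37 of 73 chromogranin-low members (50.7%, 38.7 to 62.6), in 2 of 82 chromogranin-high members (2.44%, 0.297 to 8.53) and in 55 of 3875 cells of neither arm (1.42%). Depth differed, with a median of 24119 UMIs in chromogranin-low, 15293.5 in chromogranin-high and 33321 in enterocyte comparison cells, which should lack both factors. At 2000 UMIs per cell, over the 68, 81 and 390 cells deep enough, the share with Spdef was 11.1%, 1.12% and 0.00803%, and that with Atoh1 6.18%, 0.112% and 0.0103%. Gfi1, a repressor that keeps goblet and Paneth cells from the endocrine branch, had UMIs in 14 of 73 chromogranin-low members, 1 of 82 chromogranin-high members and 4 of 3875 other cells.

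Neurog3 followed the opposite order but was not absent from the first group. It was at 527 CPM in chromogranin-high and 158 CPM in chromogranin-low members, against 21.7 CPM in neither arm. Levels of 5 CP10K or more were found in 30 of 82 chromogranin-high members (36.6%, 26.2 to 48.0), 10 of 73 chromogranin-low members (13.7%, 6.77 to 23.8) and 103 of 3875 other cells (2.66%). Neurod1, which acts after Neurog3, was at 574 CPM in chromogranin-high and 39.4 CPM in chromogranin-low members, the latter with overlapping intervals against the 33.1 CPM of neither arm. Sox9, a crypt factor needed for Paneth cells, was 62.9, 72.3 and 73.7 CPM in the groups, within 1.5 times of each other.

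Mucus and Paneth products were found in both groups at unequal levels. Between chromogranin-low and chromogranin-high members 7.51% of 10882 tested genes were higher and 19.9% lower. Tff3 was at 15219 against 2864 CPM, Spink4 at 13644 against 2556, Agr2 at 2977 against 244 and Fcgbp at 2601 (2530 to 2673) against 611 (569 to 655). Muc2 was at 306 CPM in 24 of 73 cells, with 62.6% from 3 cells, against 6.22 CPM in 6 of 82. Lyz1 stayed under 2-fold, at 1464 (1411 to 1519) and 1213 CPM (1153 to 1274), with intervals apart. Defa24 was at 8426 and 5335 CPM, but 3 cells gave 59.4% of the first sum, and Defa24 UMIs were in 27 of 73 and 50 of 82 cells. Clps was at 906 CPM in the first group and at 1408 in the second. Within the same limits and with the rule genes left out, the largest folds in chromogranin-low members were those of the mitotic genes Cenpe (at least 31.1-fold against a floor of 3 counts over the class, where 0 UMIs were found), Hmmr (39.4-fold), Ccnb2 (32.2-fold) and Ube2c (21.2-fold), and the goblet genes Lrrc26 (at least 23.9-fold, likewise), Spdef (35.1-fold) and Tpsg1 (32.2-fold), with Kctd14 at 21.5-fold. In the other direction stood Tac1, Chgb, Vim, Cck, Tph1, Chga, Scn3a and Scg2, from 161-fold to 535-fold. Chga and Chgb made the split, so their folds are given only to complete the list.

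**Figure D3:**
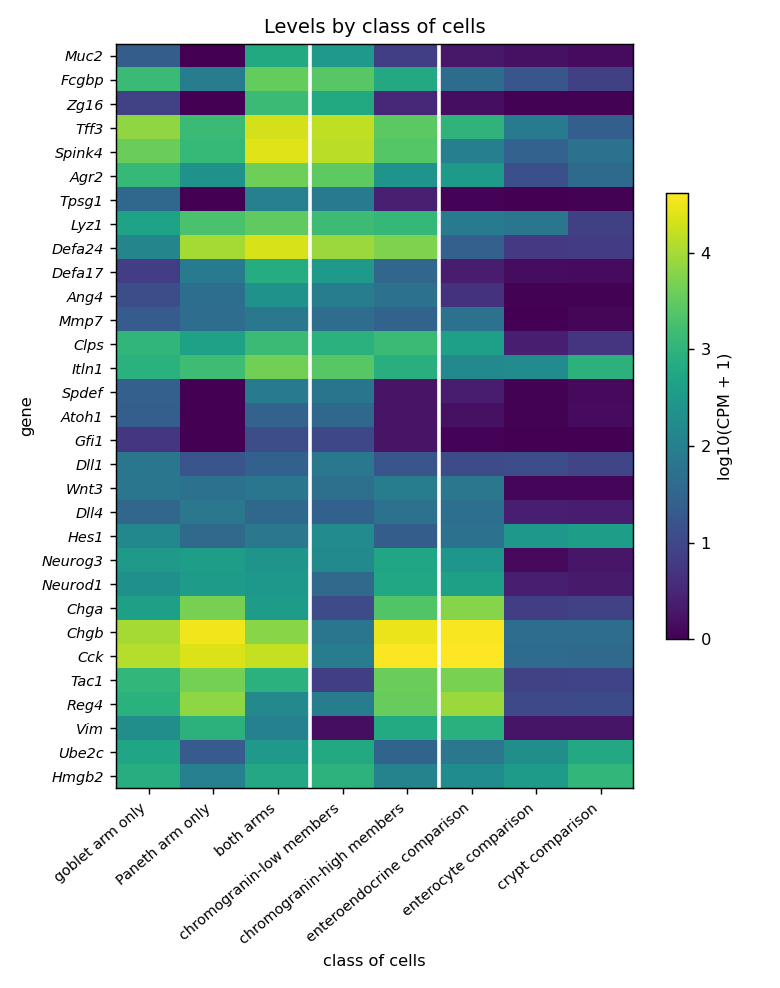
Colour shows log10 of CPM plus 1 for 31 genes (rows) in the 3 arm classes, the chromogranin-low and chromogranin-high members, and 3 comparison classes of cells that passed neither arm (columns, separated by white lines). Spdef, Atoh1, Muc2 and Tpsg1 are bright in both-arm and chromogranin-low cells and dark in Paneth-only cells, which share bright Chgb, Cck and Reg4 with the enteroendocrine comparison cells and are brighter in Defa24, Lyz1, Spink4 and Itln1. Colours show class sums: of 26 Paneth-only cells, 3 reached 100 CP10K of Cck and 3 of Reg4, for which 1 cell held 1949 UMIs.

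Chromogranin-high members were compared with the 572 cells that passed the chromogranin threshold but neither arm. Few genes differed: 0.701% of 12697 tested genes were higher in members (89) and 1.17% lower. Spink4 was 26.0-fold higher, at 2556 against 97.2 CPM, in 72 of 82 members and 242 of 572 others. Itln1, the intelectin of Paneth and goblet cells, was 5.23-fold, Clps 3.48-fold and Tff3 2.80-fold higher. Cbfa2t3 (2.65-fold), Dbpht2 (2.49-fold), the kallikrein gene Klk1 (2.45-fold) and the oxidase subunit gene Cyba (2.40-fold) were the others under the naming rule, applied to this comparison after values were seen. Of 21 enteroendocrine genes 3 were higher, 2 lower and the rest not called, with a median log2 ratio of 0.02 against 0.03 over all genes, and 8 of 20 proliferation genes were lower.

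By hormone, chromogranin-high members held cells of several enteroendocrine types. Cck, cholecystokinin, reached 100 CP10K in 23 of 82 members (28.0%, 18.7 to 39.1) and 120 of 572 comparison cells (21.0%, 17.7 to 24.5), and the glucagon gene Gcg in 9 of 82 and 46 of 572, with overlapping intervals. Gip, an incretin, did so in 9 of 82 (11%, 5.14 to 19.8) and 27 of 572 (4.72%, 3.13 to 6.79), again with overlap. Tph1, the enzyme of serotonin synthesis in enterochromaffin cells, reached 10 CP10K in 24 of 82 members (29.3%, 19.7 to 40.4) and 246 of 572 others (43.0%, 38.9 to 47.2), with overlap. Reg4, a secreted lectin of enterochromaffin cells, reached 100 CP10K in 4 of 82 (4.88%, 1.34 to 12) and 103 of 572 (18.0%, 14.9 to 21.4), with intervals apart, and 3 cells gave 92.0% of the Reg4 sum of the members. Tac1, which encodes substance P, reached 100 CP10K in 16 of 82 (19.5%) and 97 of 572 (17.0%). Neurog3 of at least 5 CP10K was in 36.6% of members and 17.5% (14.5 to 20.8) of comparison cells, with intervals apart.

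Genes of the machinery behind mucus were called higher in both groups over cells of neither arm. Between chromogranin-high members and the enteroendocrine comparison cells few genes of any kind differed. Beside the rates over all genes (higher 4.24% of 15389 in chromogranin-low and 23.3% of 15402 in chromogranin-high members, lower 2.34% and 8.25%), 18 of 31 tested genes of mucin folding, glycosylation and granules were higher and 1 lower in chromogranin-low members. In chromogranin-high members 14 of 29 were higher and 2 lower. Against the enteroendocrine comparison cells 1 of 23 was higher and 0 lower, beside 0.701% and 1.17% of all genes. The median log2 ratio there was 0.12 against 0.03 over all genes. In the first group Ern2, the stress sensor of mucus cells, was at 24.5 CPM against 0.137, Txndc5, a disulfide isomerase, at 316 against 63.8 and Fut2, a fucosyltransferase of mucin sugars, at 16.4 against 0.722. In the second Txndc5 was at 224 CPM, Tmed3, a cargo receptor, at 231 against 60.5, and Ern2 had 0 UMIs. The list of goblet products had 8 of 12 genes higher and 1 lower in chromogranin-low members, the lower one being Reg4 at 85.4 CPM against 639. Guca2a, guanylin, was at 295 against 3.61 CPM and Ccl9, a chemokine, at 77.7 against 0.329, with 64.3% and 69.7% from 3 cells. Ang4, an antimicrobial ribonuclease, was at 90.0 CPM in 11 of 73 cells and 51.3 CPM in 11 of 82 chromogranin-high members. The median log2 ratio of this list was 4.08 in chromogranin-low and 1.89 in chromogranin-high members, against -0.06 and 0.32 over all genes.

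Of 35 listed Paneth products beyond the rule genes 33 were in the files and 21 could be tested in chromogranin-low members, where 12 were higher and 1 lower, beside 4.24% and 2.34% of all genes. In chromogranin-high members 10 of 20 were higher and 3 lower, beside 23.3% and 8.25%, and against the enteroendocrine comparison cells 6 of 16 were higher and 0 lower, beside 0.701% and 1.17%. In chromogranin-low members Defa17 was at 317 CPM and Defa30 at 142, and 3 cells gave 79.2% of the first sum and 96.8% of the second. In the same members and in cells of neither arm, Itln1 was at 2638 against 642 CPM, Nupr1, a stress-induced regulator, at 477 against 128 (56.0% from 3 cells), and Cd24a, a surface protein of Paneth and endocrine cells, at 625 against 179. Egf, the growth factor Paneth cells supply to stem cells, had UMIs in 0 of 73 and 1 of 82 members and in 55 of 3875 other cells.

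Of 36 unfolded protein response and secretory pathway genes, 19 were higher and 0 lower in chromogranin-high members, where 23.3% of all genes were higher, among them Hspa5, the main chaperone of the endoplasmic reticulum, at 1145 against 483 CPM, the stress sensor gene Ern1 at 27.2 against 5.51 and Herpud1, of protein degradation, at 378 against 91.6. In chromogranin-low members, where 4.24% of all genes were higher, 7 of 36 were higher and 0 lower, with Pdia6, a disulfide isomerase, at 370 against 174 CPM and Sec11c, of signal peptide removal, at 195 against 83.4; Calr (807 CPM), Hspa5 (640), Sec61b (692) and Hsp90b1 (624) stayed below 2-fold. Compared directly, 7 of 36 were lower and 0 higher in chromogranin-low than in chromogranin-high members, close to the 19.9% of all genes that were lower. Against the enteroendocrine comparison cells, 0 of 36 were called in chromogranin-high members, near the 0.701% of all genes that were higher and 1.17% lower.

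Of the secretory transcription factors, 13 of 21 were higher in chromogranin-low and 13 of 20 in chromogranin-high members, and 0 lower in either, where 4.24% and 23.3% of all genes were higher. Against the enteroendocrine comparison cells, 0 of 18 were called in chromogranin-high members, near the 0.701% of all genes that were higher and 1.17% lower. Creb3l1 and Creb3l4, which drive secretory capacity, were at 63.9 against 3.34 CPM and 22.0 against 0.484 in the first group. Klf4, needed for goblet cell differentiation, was at 220 CPM in the first and 188 in the second, against 62.6. Pax6, an endocrine factor, was at 162 against 8.64 CPM in the second. Insm1 was at 184 CPM in chromogranin-low and 717 in chromogranin-high members, and Sox4, an early secretory factor, at 801 and 467, against 42.2 and 235.

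Of 22 tested Notch genes 6 were higher and 0 lower in chromogranin-low members, and 7 higher and 2 lower in chromogranin-high members. Over all genes 4.24% and 23.3% were higher and 2.34% and 8.25% lower, so the chromogranin-high count is near its background. Against the enteroendocrine comparison cells 0 of 21 were higher and 1 lower, beside 0.701% and 1.17% of all genes. Dll1, the ligand of early secretory cells, was at 70.5 CPM (59.3 to 83.3) in chromogranin-low members, 16.3 (10.1 to 24.95) in chromogranin-high members and 8.60 in neither arm. Dll4 was at 26.6, 55.2 and 4.86 CPM. Hes1, the Notch target that represses Atoh1, was at 167, 21.8 and 331 CPM. It passed the 2-fold rule as lower in the chromogranin-high group and missed it in the chromogranin-low group, at a log2 ratio of -0.98. The Wnt ligand Wnt3, a Paneth cell signal to stem cells, was at 49.6 and 86.3 CPM against 5.41, and it was also at 67.0 CPM in the enteroendocrine comparison cells.

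Over all genes 4.24% were higher and 2.34% lower in chromogranin-low members, and 23.3% higher and 8.25% lower in chromogranin-high members. Of 20 tested proliferation genes 0 were called in chromogranin-low members (median log2 ratio -0.0027), and 19 of 20 were lower in chromogranin-high members (median -3.44). Ube2c was at 646 CPM in the first group, 29.5 in the second and 482 in neither arm; Hmgb2 was at 983, 117 and 905 CPM, and Tubb5 at 800, 97.9 and 714 CPM. The summed list had a median over cells of 28.6 CP10K in chromogranin-low members, 3.96 in chromogranin-high members and 4.61 in enteroendocrine comparison cells. Enterocyte genes were lower for 10 of 16 and higher for 2 in chromogranin-high members, Fabp1 being at 66.8 CPM against 2020, and lower for 1 of 16 in chromogranin-low members, where Fabp1 was at 1498 CPM with 84.6% from 3 cells. Of the crypt stem genes, 6 of 13 were lower in chromogranin-high members, and 2 were higher, a share below that of all genes, with Slc12a2 at 38.9 against 273 CPM and Smoc2 at 49.0 against 158, and 2 of 13 were lower in chromogranin-low members, namely Olfm4 (0.511 against 19.95 CPM) and Ascl2 (2.04 against 6.41 CPM). Chromogranin-high members were also set against the enteroendocrine comparison cells, where 0.701% of all genes were higher and 1.17% lower. There 0 of 15 enterocyte genes were called, 0 of 12 crypt stem genes were higher and 1 lower, and 8 of 20 proliferation genes were lower.

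**Figure D4:**
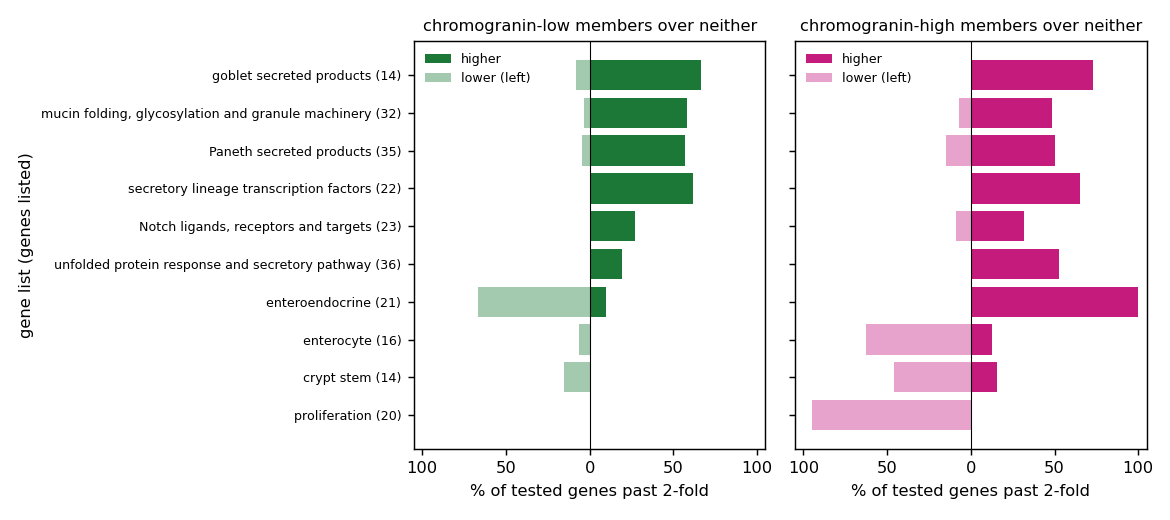
Bars show the percentage of tested genes of 10 lists that were higher (right) or lower (left) by at least 2-fold with intervals apart, in chromogranin-low members (left panel) and chromogranin-high members (right panel) against cells of neither arm. Both panels share long right bars for goblet products and secretory factors. Several lists differ between the panels, among them the enteroendocrine, proliferation, enterocyte, crypt stem and unfolded protein response lists. Of 21 enteroendocrine genes 2 were higher and 14 lower in the left panel and 21 higher in the right, and of 20 proliferation genes 0 were lower in the left panel and 19 in the right, where 23.3% of all genes were higher and 8.25% lower; the enteroendocrine list holds Chga and Chgb, which made the split.

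Goblet-only and Paneth-only cells were also compared directly. Of 10436 tested genes 3.22% were higher in goblet-only cells (336) and 4.35% lower (454). Cell cycle genes led the first direction: Birc5, of mitotic spindles, was at 174 CPM against 0 UMIs, at least 22.5-fold higher against a floor of 3 counts over the class, with Cenpa, a centromere histone, at least 17.4-fold and Hmmr at least 10.1-fold. Pclaf, Ube2c, Mki67, Kctd14 and Tpx2 were 16.6-fold to 25.7-fold higher, Pclaf and Mki67 in 1 of 26 Paneth-only cells and 41 and 36 of 124 goblet-only cells. In the other direction Vim was 4.81-fold higher in Paneth-only cells, the activity-induced factor Nr4a1 4.49-fold, Zbtb10 4.48-fold, Slc18a1, a monoamine transporter of enterochromaffin cells, 4.15-fold and Tac1 4.03-fold. Arhgef28, 1190002N15Rik and Tmcc1 were 3.58-fold to 3.95-fold higher. By list, 17 of 20 proliferation genes were higher in goblet-only cells and 11 of 21 enteroendocrine genes lower, 3 higher. The classes also differed in their mix, with chromogranin-high members at 21 of 26 Paneth-only and 43 of 124 goblet-only cells. In chromogranin-high members 19 of 20 proliferation genes were lower than in neither arm. The part of this mix in the contrast was not tested. With the mean of each cell's CPM and no intervals, 2891 genes passed 2-fold in place of 790, and without the cells at the chromogranin threshold 466 did.

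Markers of other cell types were read beside these results. Ptprc, the leukocyte marker, had 0 UMIs in members, and the 10 immune genes together were between 0 and 2.19 CP10K per member. Of 8 mesenchymal genes 5 had 0 UMIs in members and nearly all of the 255 CPM was Vim, which was at 654 CPM in chromogranin-high members, 0.511 in chromogranin-low members and 862 in the enteroendocrine comparison cells. The 12 tuft genes were at 15.1 CPM in members and 9.67 in neither arm. The summed enterocyte list ran from 0 to 471 CP10K per member, median 11.2, against a median of 13.1 in neither arm. The summed enteroendocrine list ran from 0 to 3387 CP10K in members, median 31.5, against 1.58 in neither arm. The part of these cells or of free transcripts in the results was not tested. In enterocyte comparison cells, which by their choice passed neither arm, Fcgbp had UMIs in 28.4% (3.51% at 2000 UMIs) and Lyz1 in 50.1% (10.2%).

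By suffix, 125 of 2300 kept cells of suffix 1 (5.43%, 4.54 to 6.44) and 66 of 1766 of suffix 2 (3.74%, 2.90 to 4.73) were members, with overlapping intervals. The intervals were apart under 3 alternatives: with a goblet arm threshold of 2 CP10K (5.63 to 7.70 and 3.61 to 5.61), with no mitochondrial limit (4.37 to 5.30 and 3.01 to 3.998) and without the chromogranin cells (3.08 to 4.85 and 1.23 to 2.69). Goblet-only cells were 92 and 32 cells, or 4% (3.24 to 4.88) and 1.81% (1.24 to 2.55) of the kept cells, and these intervals were apart. Shallow barcodes also differed: 14.0% of kept cells of suffix 1 and 6.795% of suffix 2 had at most 3333 UMIs, and low-count members, all goblet-only, numbered 32 and 4. The part of depth in the goblet-only difference was not tested. With at least 3 UMIs required in an arm, all members together were 4.04% and 3.51% of the kept cells. Chromogranin-low members were 2.09% (1.54 to 2.76) and 1.42% (0.918 to 2.08), and chromogranin-high members 1.96% and 2.10%. Both-arm cells were 0.826% (0.498 to 1.29) and 1.25% (0.782 to 1.88). Paneth-only cells were 0.609% and 0.680%.

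Levels within chromogranin-low members differed between the suffixes, higher in suffix 2 for Muc2, Defa24, Zg16, Tff3 and Fcgbp and lower for Lyz1. Muc2 was at 77.2 CPM (61.7 to 95.3) in the 48 cells of suffix 1 and 610 (558 to 665) in the 25 of suffix 2, where 3 cells gave 73.1% of it. Defa24 was at 2047 and 16874 CPM, with 77.0% and 69.0% from 3 cells, and Zg16 at 1.79 and 1473 CPM, with 98.8% of the latter from 3 cells. Tff3 was at 7835 and 24997 CPM and Fcgbp at 1950 and 3462 CPM, with medians over cells of 40.7 and 174 CP10K for Tff3 and of 15.7 and 24.6 CP10K for Fcgbp. The 3 kept cells with most Tff3 were all such members of suffix 2 and held 24.2% of its UMIs in kept cells. For Fcgbp the 3 highest were likewise of suffix 2 and held 15.0%. Lyz1 was at 1646 (1571 to 1723) and 1224 CPM (1150 to 1301), with 35.7% and 55.2% from 3 cells. Spdef was at 57.4 (44.2 to 73.3) and 66.5 CPM (50.3 to 86.4) and Atoh1 at 42.2 (31.0 to 56.1) and 27.3 CPM (17.3 to 41.0), with overlapping intervals. A suffix stands for no treatment here, so these differences have no direction with respect to melatonin.

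**Figure D5:**
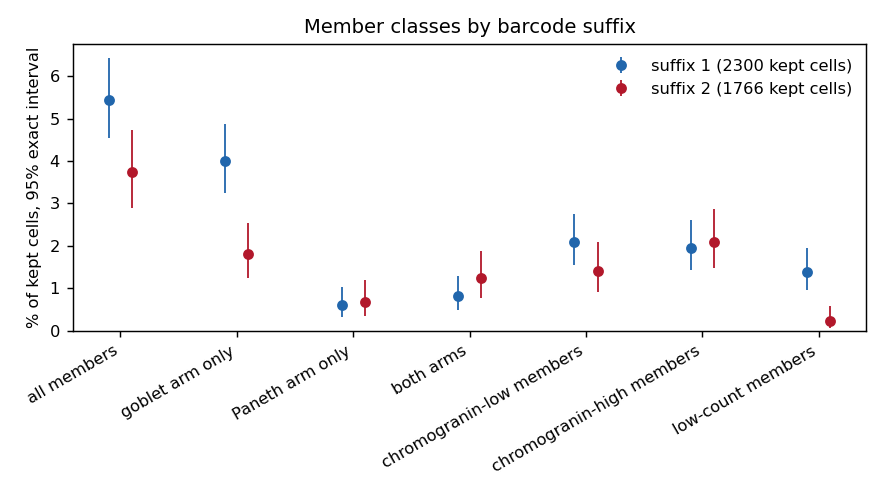
Points show the percentage of kept cells in each member class for barcodes of suffix 1 (blue, 2300 cells) and suffix 2 (red, 1766 cells), with 95% exact binomial intervals. The intervals are apart for goblet-only and low-count members and overlap for the other 5 classes.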

How the data were processed

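Single cells of mouse small intestinal organoids were profiled from the 3′ end with droplets. The deposited matrix holds UMI counts per gene and barcode as whole numbers, not normalized; the submitters' processing notes name Cell Ranger 3.1.0, STAR 2.7.3a and bcl2fastq 2.20.0, and the genome build is not given in the sources used here. Kept cells had 500 or more genes, 1000 or more UMIs and a mitochondrial share no higher than 20%; no doublet caller was used. Kept cells had a median of 29222 UMIs. Levels are UMIs per 10000 of a cell (CP10K) or UMIs per 1000000 summed over a class (CPM) with exact Poisson intervals; shares have Clopper-Pearson intervals. Folds compare CPM plus 1, which understates low genes, over genes with at least 10 UMIs in both classes together, the rule genes left out of all counts of called genes. Shares at 2000 UMIs are expected shares after thinning. Scripts used Python 3.11.15, numpy 2.4.6 and scipy 1.17.1. With 1 data set no test was possible.

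The members, gene lists and comparisons were chosen with earlier results of these data known. Named genes were the 10 with the largest fold over neither arm (8 between classes) at 50 CPM or more, with a UMI in 25% of the class, at most 50% of UMIs in 3 cells, and intervals apart; the rule genes; genes among the 4 highest of each list, of which the text gives a part; and Atoh1, Spdef, Gfi1, Neurog3, Sox9, Dll1, Dll4, Wnt3 and Egf. Other genes, and all single cells, were named after their values were seen. Alternatives varied thresholds, filters, pseudocount and the summing of cells.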

Additional observations from a re-analysis of the deposited data

Results flagged for a closer look

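Barcodes left out of all values above also reached the rule. Of 9781 barcodes with enough genes and UMIs but over 20% mitochondrial UMIs, 403 passed an arm (4.12%, 95% exact interval 3.73 to 4.53), beside 4.70% of the kept cells (4.07 to 5.39). They are listed because no comparison used them; the rule genes chose them, so the share is a description. The goblet arm took 382 of them, the Paneth arm 43 and both 22, and 151 had at least 3 UMIs of the genes of an arm. What these barcodes hold was not tested.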

How the results depend on the processing

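No paired analysis was possible because each labelled group has 1 sample and both hold the same matrix. Members were 4.70% of kept cells; the share was 5.71% and 3.42% with goblet arm thresholds of 2 and 6 CP10K, 5.59% with at most 10% mitochondrial UMIs, 3.81% with at least 3 UMIs of an arm's genes and 3.02% without the cells at the chromogranin threshold. For suffix 1 (5.43%) it was 6.61% and 3.78% at those goblet thresholds, 4.44% with at least 5000 UMIs, 4.04% with 3 arm UMIs and 3.90% without chromogranin cells; for suffix 2 (3.74%) it was 4.75% at the 10% limit and 1.85% without chromogranin cells. Both-arm cells were 21.5% of members, 31.2% with a Paneth arm threshold of 10 CP10K and 10.6% with no mitochondrial limit. Members at the chromogranin threshold were 46.1%, 57.5% at the 10% limit, 21.4% with no limit, 54.5% with at least 5000 UMIs and 55.0% with a threshold of 5 CP10K. Genes higher in goblet-only cells (1691) numbered 1092 at 6 CP10K, 1112 with no mitochondrial limit, 873 without chromogranin cells and 379 with a pseudocount of 10 CPM; in Paneth-only cells (2445) they numbered 685 without chromogranin cells and 1418 with that pseudocount. Genes that differed between goblet-only and Paneth-only cells (790) numbered 1206 at 6 CP10K, 466 without chromogranin cells and 2891 with the mean of each cell's CPM and no intervals. Over all chromogranin cells, leaving out the 3 highest cells of a gene gave 106 CPM for Fcgbp (119 with them), 197 for Lyz1 (232) and 477 for Defa24 (736). The causes were not tested. The alternatives for the suffixes and for the chromogranin share, and leaving out the chromogranin cells or the 3 highest cells, were chosen after seeing the data. At a median of 15092 UMIs per member, a gene with 0 UMIs was not detectable at this depth.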

Other observations

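Genes of the pathways in the study's title were read in the members. Of the YAP target list 17 genes could be tested: 3 were higher and 2 lower in chromogranin-low members, and 6 higher and 3 lower in chromogranin-high members, against cells of neither arm. Over all genes 4.24% and 23.3% were higher and 2.34% and 8.25% lower. Against the enteroendocrine comparison cells 0 of 12 YAP targets were higher and 1 lower in chromogranin-high members, beside 0.701% and 1.17% of all genes. Yap1 itself, the transcriptional coactivator, was at 24.0 CPM (17.7 to 32.0) in chromogranin-low members, 2.33 (0.481 to 6.81) in chromogranin-high members and 22.9 (22.0 to 23.8) in neither arm. Gadd45a, a stress-induced target, was at 110, 222 and 52.4 CPM. The prostaglandin E2 receptor gene Ptger3 was at 31.9 CPM (22.9 to 43.2) in 13 of 82 chromogranin-high members and at 0 UMIs in chromogranin-low members, and at 22.3 CPM in the enteroendocrine comparison cells. Ptger4 was at 7.67, 8.55 and 7.42 CPM, and Ptger2 had 0 UMIs in all kept cells. The melatonin receptor gene Mtnr1a had UMIs in 4 of 73 chromogranin-low members, 0 of 82 chromogranin-high members and 16 of 3875 other cells, and Mtnr1b had none.

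Of 13 tested genes of the revival-like list, named for regenerative epithelium, 3 were higher and 0 lower in chromogranin-low members and 2 higher and 5 lower in chromogranin-high members, against cells of neither arm and beside the shares of all genes above. Areg, an epidermal growth factor receptor ligand, was at 653 CPM in chromogranin-low members, 75.4 in chromogranin-high members and 241 in neither arm, and S100a6, a calcium-binding protein, at 338, 33.4 and 116 CPM; 3 cells gave 82.5% and 71.9% of the chromogranin-low sums. Krt7, a keratin, was at 233, 292 and 50.04 CPM. Clu, the marker of revival stem cells, had UMIs in 4 of 73 and 7 of 82 members and in 122 of 3875 cells of neither arm. Among antioxidant genes Gpx2, a gut glutathione peroxidase, was at 1489, 526 and 701 CPM, while Gsta4, a glutathione transferase gene, was at 629, 36.5 and 852 CPM.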
